A study of Mus musculus with 2 samples.

Results

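Granzymes and perforin are the contents of cytotoxic granules, and 6 of their genes (*Gzma*, *Gzmb*, *Gzmc*, *Gzmk*, *Gzmm* and *Prf1*) were followed through CD45+ cells of the mouse brain. The members were taken by their symbols and make up 6 of the 27998 genes in the count tables. Their unique molecular identifiers (UMIs, each marking 1 captured transcript) were summed by library and by cell class. The classes were set from UMIs of other genes, so no granzyme or perforin value decided where a cell was placed.

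The cells came from the brains of untreated C57Bl/6 mice (C57BL/6J in the study's methods) at postnatal day 21, the age of disease onset in twitcher (twi) mice, which are galc-/- and lack galactosylceramidase, the enzyme also missing in globoid cell leukodystrophy (Krabbe disease). The comparison group was WT littermates, galc+/+. Brain leukocytes were taken from a Percoll gradient, sorted for CD45 and run on the 10x Genomics 3′ v2 assay, with 2 to 3 animals pooled into 1 library for each genotype. There was therefore no replicate error and no test between genotypes, and every interval given is a 95% interval that covers counting error only.

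The WT library held 3749714 UMIs in 1278 barcodes and the twi library 4807539 UMIs in 1220 barcodes, and the 1271 and 1207 barcodes with at most 15% mitochondrial UMIs were kept. The median depth was 2216 UMIs in WT and 3149.5 in twi, and no barcode was shared between the libraries. *Galc* itself gave 4 UMIs in WT and 8 in twi, but reads from the 3′ end cannot show the point mutation of twi mice, so these counts are no check of the labels. *Xist* without a Y-linked transcript was seen in 45.4% of twi cells and in 0 WT cells, so the pools also differed in the sex of their animals. Genotype and sex cannot be told apart in the whole libraries. CD8 T values of *Gzma*, *Gzmb*, *Gzmk* and *Prf1* are therefore also given for cells with Y-linked transcripts and no *Xist* (47 WT and 62 twi cells).

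Cytotoxic lymphocytes store granzymes, a family of serine proteases, together with perforin in secretory granules. On contact with a target cell perforin forms pores in its membrane, and the granzymes enter and cleave substrates inside. Granzyme A and granzyme K are tryptases that cut after basic residues, granzyme B cuts after aspartate and activates caspases, granzyme M prefers methionine or leucine, and granzyme C is a mouse enzyme encoded next to granzyme B. Natural killer (NK) cells hold such granules before any activation, whereas CD8+ T cells fill theirs after they meet antigen.

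The members lie on 3 chromosomes (GRCm38, the build of the deposited counts, with the GENCODE gene models). *Gzmb* (chromosome 14, 56258838 to 56262260) and *Gzmc* (chromosome 14, 56231441 to 56234656) stand at one end of a row of 7 granzyme genes that spans 144.6 kb, and 24.2 kb with 0 protein-coding genes separates them. *Gzma* (chromosome 13, 113093825 to 113100981) and *Gzmk* (chromosome 13, 113171608 to 113225908) are also neighbours, 70.6 kb apart with 0 protein-coding genes between. *Prf1* (61297833 to 61304680) and *Gzmm* (79689020 to 79695261) are both on chromosome 10 but 18384 kb apart. All 4 granzyme genes on chromosomes 13 and 14 named here are read from the minus strand.

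Both pairs of neighbours went different ways across the cell classes described below, and their promoters are therefore shown. Each is printed from 200 bases before the RefSeq start site (assembly GRCm38.p6) through the first 10 bases of the transcript, 5′ to 3′ on the coding strand. Capitals mark matches on either strand to the Runx motif TGTGGT, the T-box motif GTGTGA, the AP-1 motif TGAGTCA or the cyclic AMP response motif TGACGT. RefSeq places the start of *Gzmb* and of *Gzmk* elsewhere than the GENCODE model does, at 56262334 and 113180965.
Gzmb (chr14:56262325-56262534, minus strand): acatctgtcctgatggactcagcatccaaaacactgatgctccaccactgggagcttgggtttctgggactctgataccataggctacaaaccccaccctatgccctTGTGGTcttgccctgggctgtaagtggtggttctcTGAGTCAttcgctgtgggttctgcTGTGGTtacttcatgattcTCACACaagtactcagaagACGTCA
Gzmc (chr14:56234648-56234857, minus strand): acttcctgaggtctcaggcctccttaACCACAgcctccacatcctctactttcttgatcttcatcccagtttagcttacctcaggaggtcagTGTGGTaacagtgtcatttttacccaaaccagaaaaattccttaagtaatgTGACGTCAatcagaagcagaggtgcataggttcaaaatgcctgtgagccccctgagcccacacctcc
Gzma (chr13:113100972-113101181, minus strand): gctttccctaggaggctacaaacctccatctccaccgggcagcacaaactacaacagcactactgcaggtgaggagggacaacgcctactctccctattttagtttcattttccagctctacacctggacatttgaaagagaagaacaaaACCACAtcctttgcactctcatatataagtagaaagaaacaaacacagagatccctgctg
Gzmk (chr13:113180956-113181165, minus strand): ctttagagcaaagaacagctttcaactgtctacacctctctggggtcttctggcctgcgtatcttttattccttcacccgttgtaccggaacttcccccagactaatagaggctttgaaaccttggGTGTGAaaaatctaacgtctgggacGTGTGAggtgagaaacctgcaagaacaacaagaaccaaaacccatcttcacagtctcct

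With the start site counted as 0, the *Gzmb* promoter had Runx matches at -93 and -34, an AP-1 match at -58, a T-box match at -15 and a cyclic AMP response match at 4. *Gzmc* had Runx matches at -174 and -108 and cyclic AMP response matches on both strands at -57 and -55, which overlap each other, and neither AP-1 nor T-box. *Gzma* had a Runx match at -50 alone, and *Gzmk* had T-box matches at -74 and -49 and no other. Over 32851 RefSeq promoters of 300 bases the Runx letters occurred in 16.8%, the T-box letters in 14.5%, the cyclic AMP response letters in 7.51% and the AP-1 letters in 5.202%. These matches describe letters and no binding was measured.

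Cells were placed in CD8 T (104 WT and 434 twi cells), CD4 T (46 and 74), γδ T (10 and 49), T cells with NK receptors (40 and 113) and NK (64 and 59) classes. The CD8 T class carried *Cd8b1* in 95.2% and 88.7% of cells, and the NK class carried *Ncr1* in 95.3% and 93.2%. Both genes were among those that set the classes, so these shares are no check of purity. CD8 T cells made up 8.18% of WT and 36.0% of twi cells, and NK cells 5.04% and 4.89%. B cells (527 and 145 cells), not a class known for these granules, served to show how many UMIs free RNA can give. A further 118 WT and 85 twi cells mixed T or NK markers with those of another lineage, or mixed markers of different other lineages, and entered no class.

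*Gzmb* gave 302 UMIs in the whole WT library and 1418 in twi. In CD8 T cells it gave 13 UMIs in 6 of 104 WT cells and 788 UMIs in 146 of 434 twi cells. Scaled to 1000000 UMIs of the class (CPM), this was 32.9 (95% interval 17.5 to 56.3) in WT and 393 (366 to 422) in twi, a ratio of 11.9 (6.95 to 22.5). The intervals of the genotypes did not overlap. The share of CD8 T cells with *Gzmb* was 5.77% at a median depth of 3396 UMIs and 33.6% at 4016, and in B cells it was 0.380% at 2005 and 3.45% at 2199. After each cell was thinned to 1000 UMIs the CD8 T shares were 1.96% and 19.4%. Most of the *Gzmb* in the twi library was in CD8 T cells, 55.6% of its UMIs against 4.30% in WT, while the NK share was 10.3% in twi and 48.7% in WT. In cells with Y-linked transcripts and no *Xist* the CD8 T ratio was 10.8 (5.70 to 23.0).

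In NK cells *Gzmb* gave 147 UMIs in WT and 146 in twi, or 816 and 698 CPM, and the ratio of 0.855 (0.675 to 1.08) included 1. T cells with NK receptors gave 44 and 228 UMIs, or 353 and 531 CPM. Their ratio was 1.51 (1.09 to 2.13), which joins cells with and without *Cd3e* that went opposite ways, as described with *Gzma*. In CD4 T cells the level was 51.4 CPM in WT and 81.4 CPM in twi from 8 and 21 UMIs, and in γδ T cells 0 UMIs were seen in WT and 27 in twi. Within twi the order of *Gzmb* levels was NK (698 CPM, 589 to 820), T cells with NK receptors (531, 465 to 605), CD8 T (393, 366 to 422), γδ T (152, 100.2 to 221), CD4 T (81.4, 50.4 to 124) and B cells (14.2, 4.60 to 33.1). The intervals of NK cells and T cells with NK receptors overlapped, as did those of γδ and CD4 T cells. NK cells stood 24.8-fold (14.1 to 47.7) above CD8 T cells in WT and 1.77-fold (1.48 to 2.12) in twi.

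*Gzma* was spread differently. The whole libraries gave 3454 UMIs in WT and 3567 in twi. NK cells held 59.99% of these in WT and 43.3% in twi, where CD8 T cells held 25.2% and unresolved cells, which met no class rule, 18.4%. NK cells had 2072 UMIs in 63 of 64 WT cells and 1546 UMIs in 45 of 59 twi cells, or 11499.5 CPM (11010 to 12006) and 7387 CPM (7024 to 7765). The twi level was lower, with a ratio of 0.642 (0.601 to 0.687). When unresolved cells with at least 2 NK receptor genes and a UMI of *Cd4*, *Cd8b1* or 1 of *Cd3* were let in, it was 0.792 (0.747 to 0.841). B cells gave 20.8 and 25.5 CPM with never more than 1 UMI in a cell, in 4.55% and 6.21% of cells, which sets the size of the background in both libraries.

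The 14 twi NK cells without *Gzma* were not shallow, at a median of 4235 UMIs against 2966 in the 45 cells with it. *Gzmb* was seen in 7 of these 14 and in 27 of the 45. *Eomes*, a T-box factor of mature NK cells, was seen in 2 of the 14 and in 21 of the 45, and *Cxcr6*, a chemokine receptor of tissue-resident lymphocytes, in 6 of the 14 and in 5 of the 45. *Ncr1* was seen in 13 and 42 of them. Fewer NK cells of twi had *Gzma*, at 76.3% against 98.4%. Among the NK cells with *Gzma*, the mean was 32.9 UMIs a cell in WT and 34.4 in twi, but their level was 11625 CPM in WT and 10002 CPM in twi.

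In CD8 T cells *Gzma* gave 47 UMIs in 10 WT cells and 898 UMIs in 91 twi cells, or 119 CPM (87.4 to 158) and 448 CPM (419 to 478), a ratio of 3.77 (2.81 to 5.16). The share with *Gzma* was 9.62% and 21.0%, and 6.86% and 10.51% after thinning. Much of each sum lay in its 5 highest cells (89.4% for WT, 43.0% for twi), and the median in cells with *Gzma* was 1 UMI in both, the count seen in B cells. Without the highest cell of each library the ratio was 4.95 (3.46 to 7.33). In cells with Y-linked transcripts and no *Xist* it was 13.1 (9.14 to 19.5), and the shares differed by 22.1 rather than 11.4 percentage points. T cells with NK receptors gave 496 UMIs in WT and 304 in twi, or 3979 and 708 CPM, and 5 WT cells held 79.2% of that WT sum. Their ratio was 0.178 (0.154 to 0.206). *Gzma* was therefore higher in twi in 1 class and lower in 2 others, as the plot of ratios by class shows. The T cells with NK receptors, however, joined cells with and without *Cd3e* whose ratios lay on opposite sides of 1, as given next. The ratio with *Cd3e* rests on few cells.

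The T cells with NK receptors were not alike in *Cd3e*, a T cell receptor subunit that was seen in 47.5% of the WT and 75.2% of the twi cells. This split was chosen after the values were seen. In the 21 WT and 28 twi cells without *Cd3e*, the *Gzma* level was 7492 and 1366 CPM. In the 19 WT and 85 twi cells with *Cd3e* it was 296 CPM from 18 UMIs and 498 CPM from 162 UMIs, and the ratio turned to 1.68 (1.03 to 2.91). In WT 1 cell held 16 of the 18 UMIs, and in twi 5 cells held 77.8% of the 162. The direction of this ratio therefore rests on few cells. *Gzmb* in the cells with *Cd3e* gave 1 UMI in WT and 192 in twi, or 16.4 and 590 CPM, with a ratio of 35.9 (6.37 to 1427). In the cells without *Cd3e* it gave 43 and 36 UMIs and was lower in twi, at 0.514 (0.321 to 0.819). The low *Gzma* ratio of this class was that of the cells without *Cd3e*, at 0.182 (0.1501 to 0.220). Over the whole class *Ncr1*, a marker used for the NK class, was seen in 42.5% of WT and 29.2% of twi cells.

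Within twi the order of *Gzma* levels was NK, T cells with NK receptors, CD8 T, γδ T (101 CPM, 60.1 to 160.2), CD4 T (27.1 CPM, 10.9 to 55.9) and B cells (25.5 CPM, 11.7 to 48.4). Of these neighbours, the CD4 T and B cells overlapped. Those T cells with NK receptors that had *Cd3e*, at 498 CPM (424 to 581), also overlapped CD8 T cells (419 to 478). The γδ T level came from 18 UMIs in 5 cells, of which 1 cell held 14 and no other more than 1, so its place rests on that cell. NK cells stood 96.7-fold (72.4 to 132) above CD8 T cells in WT and 16.5-fold (15.2 to 17.9) in twi. In WT the CD4 T level of 38.6 CPM (14.1 to 84.0) also overlapped that of B cells (13.3 to 31.0).

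**Figure D1:**
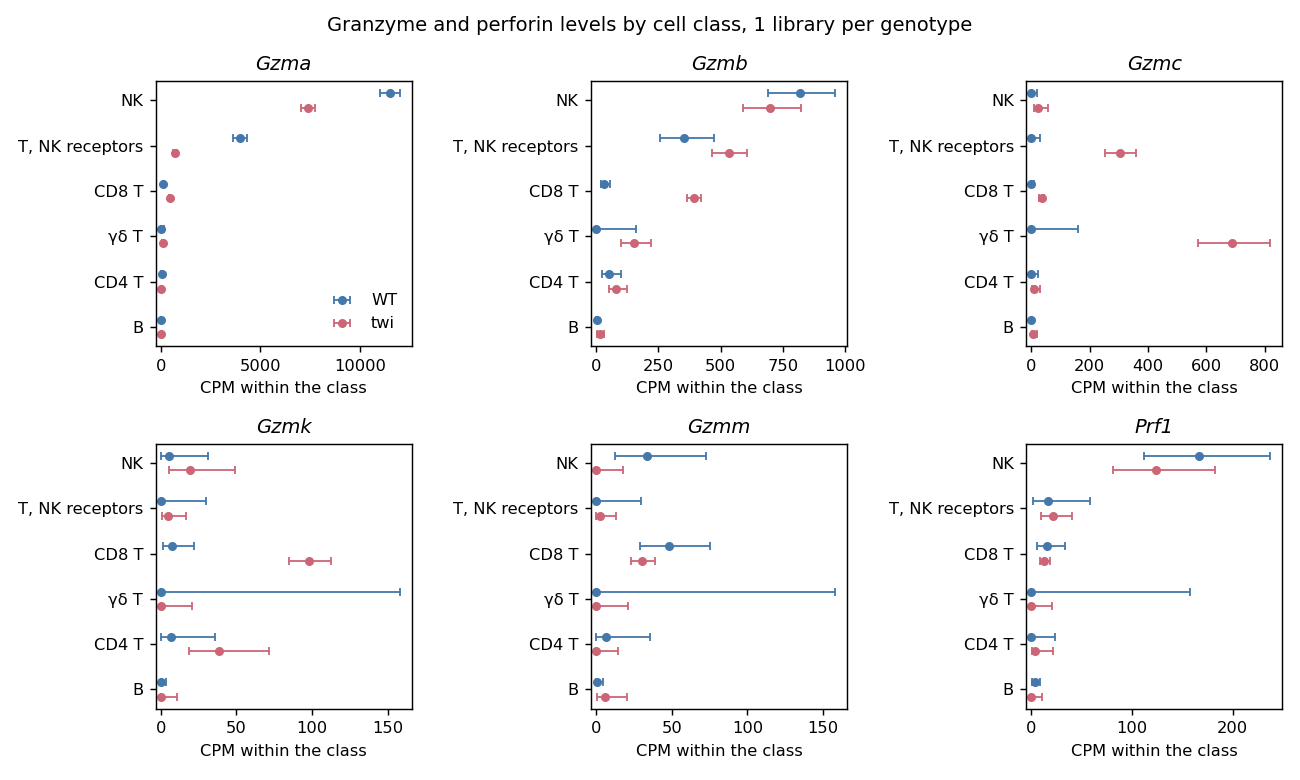
Level of each gene by cell class, as UMIs scaled to 1000000 UMIs of the class (CPM), in the WT (blue) and twi (red) libraries. Points are the sums over the cells of 1 library and bars are exact 95% Poisson intervals; each panel has its own axis, so genes cannot be compared with each other. NK cells lead for Gzma, Gzmb and Prf1, CD8 T cells of twi lead for Gzmk, and Gzmc is at 0 in WT in every class drawn.

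*Gzmk* followed CD8 T cells. It gave 3 UMIs in the WT CD8 T cells and 196 UMIs in 85 twi cells, or 7.59 CPM (1.57 to 22.2) and 97.8 CPM (84.6 to 112.5). The ratio was 12.9 (4.34 to 63.0). The share of cells with *Gzmk* was 2.88% and 19.6%, or 0% and 8.41% after thinning. In B cells it was 0% in both libraries, with exact upper limits of 0.698% and 2.51%. In CD8 T cells with Y-linked transcripts and no *Xist* the ratio was 21.2 (5.59 to 180), and the shares differed by 28.0 rather than 16.7 percentage points. CD8 T cells held 84.8% of the *Gzmk* UMIs of the twi library. CD4 T cells of twi gave 10 UMIs in 7 cells (38.7 CPM, 18.6 to 71.2), NK cells 4 UMIs (19.1 CPM, 5.21 to 48.9), T cells with NK receptors 2 and γδ T cells 0. The CD4 T and NK intervals overlapped each other and lay below that of CD8 T cells. In WT, 22 of the 31 *Gzmk* UMIs were in 1 mixed-lineage cell that also carried neutrophil markers.

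*Gzmm* also sat mainly in CD8 T cells but was not higher in twi. It gave 19 UMIs in 11 WT cells and 61 UMIs in 26 twi cells, or 48.1 CPM (28.9 to 75.1) and 30.4 CPM (23.3 to 39.1), and the ratio of 0.633 (0.373 to 1.12) included 1. NK cells gave 6 UMIs in WT and 0 in twi. With 3 UMIs in place of 0 the twi level was 0.431 of the WT level, and the exact upper limit was 0.731. T cells with NK receptors gave 0 and 1 UMI, CD4 T cells 1 and 0, and γδ T cells 0 in both. The neighbours in this order, below CD8 T cells, overlapped in every case.

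*Prf1*, which encodes perforin, gave 50 UMIs in WT and 72 in twi. NK cells gave 30 UMIs in 25 WT cells and 26 UMIs in 19 twi cells, or 166 CPM (112.3 to 238) and 124 CPM (81.2 to 182). The ratio of 0.746 (0.424 to 1.31) included 1. CD8 T cells gave 6 UMIs in WT and 25 in twi, or 15.2 CPM (5.57 to 33.0) and 12.5 CPM (8.07 to 18.4), with a ratio of 0.821 (0.329 to 2.45). A rise in *Prf1* like that of *Gzmb* lies outside that interval, although a rise of up to 2.45-fold does not. The share of cells with *Prf1* was 5.77% and 5.53% in CD8 T cells and 1.96% and 1.40% after thinning, against 0.759% and 0% in B cells. In CD8 T cells with Y-linked transcripts and no *Xist* the ratio was 0.400, and the shares differed by -6.90 rather than -0.24 percentage points. Since the whole WT class held only 6 *Prf1* UMIs, these values rest on very few counts and no fall is read from them. NK cells stood above CD8 T cells by 10.96-fold (4.49 to 32.2) in WT and 9.96-fold (5.53 to 18.0) in twi, and T cells with NK receptors (16 and 21 CPM) overlapped CD8 T cells in both.

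*Gzmc* was all but absent from WT, with 1 UMI in 1 mixed-lineage cell. The twi library held 345 UMIs in 40 cells, a ratio of 269 (48.0 to 10672). In CD8 T cells it gave 0 UMIs in WT and 70 in 19 twi cells. With 3 UMIs in place of 0 the bound was 4.60-fold higher, and the exact lower limit was 3.64. T cells with NK receptors gave 0 and 130 UMIs, of which 1 cell held 77. The bound there was 12.6-fold higher and the exact lower limit 10.1. Without that cell the bound was 5.08, and thinned to 1000 UMIs a cell it was 1.65. In γδ T cells it gave 0 and 122 UMIs, in NK cells 0 and 5, in CD4 T cells 0 and 2 and in B cells 0 and 2.

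These UMIs came from few cells, as the cell-by-cell plot of *Gzmc* shows. Of the 40 twi cells 25 had 1 UMI, and 5 cells with more than 10 UMIs held 283 of the 345, or 82.0%. The highest, with 121 UMIs, was in the γδ T class, but it had a single *Cd3* UMI and 7 NK receptor genes, so the γδ T level of *Gzmc* rests on a cell whose class is doubtful. Without it the γδ T class held 1 UMI. The next were T cells with NK receptors at 77, 35 and 12 UMIs and a CD8 T cell at 38. Of these 5 cells, 4 had *Cxcr6*, 2 had *Gzmb*, 0 had *Prf1* and 0 had the naive or the cycling genes. Among all 40 cells, 22 had *Gzmb*, 24 had *Cxcr6* and 12 had *Gzma*. Without its highest cell the bound for the CD8 T class was 2.1.

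**Figure D2:**
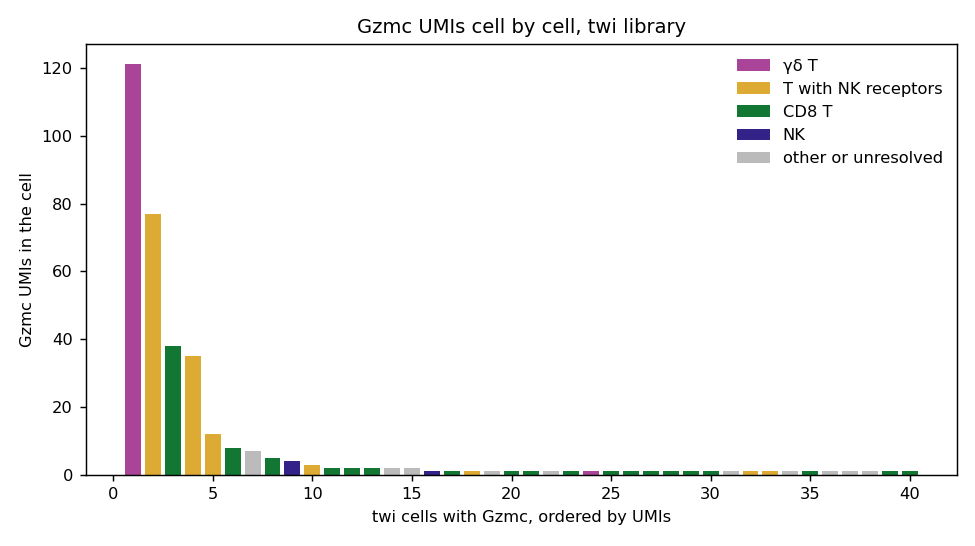
Gzmc UMIs in each of the 40 twi cells that had any, ordered by count and coloured by cell class. The first 5 cells, with 121, 77, 38, 35 and 12 UMIs, hold 82.0% of the 345 UMIs, and 25 cells have 1 UMI each.

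*Gzmb* and *Gzmc* share at most 49 bases in a row between their transcripts, and *Gzmc* and *Gzme* share 68. The 5 other granzyme genes of the chromosome 14 row, *Gzmd*, *Gzme*, *Gzmf*, *Gzmg* and *Gzmn*, gave 0 UMIs in all 1278 WT and all 1220 twi barcodes. The *Gzmc* count was therefore not accompanied by counts of its nearest copies. Reads shared between copies could still have been dropped before the counts were made.

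Read as changes of at least 2-fold among genes with at least 20 UMIs over both libraries, 4 of the 6 members (*Gzma*, *Gzmb*, *Gzmc* and *Gzmk*) were higher in twi CD8 T cells, where 11.5% of 7468 genes were, and 0 were lower, against 2.95%. Of these 4, *Gzma* alone had 20 UMIs in WT, and the others passed the limit through the library in which they were high, so nothing is read from this count. In NK cells 3 members could be read so and 0 passed in either direction, where 3.86% of 2795 genes were higher and 4.47% lower. In T cells with NK receptors 3 could be read, of which *Gzmc* was higher and *Gzma* lower, where 7.42% of 3557 genes were higher and 4.22% lower. *Gzmc* had 0 UMIs in WT there and passed the limit through twi alone. Within twi, *Gzma* and *Prf1* were at least 2-fold higher in NK than in CD8 T cells and *Gzmk* and *Gzmm* lower, where 9.79% of 7376 genes were higher and 12.9% lower. *Gzmk* and *Gzmm*, with 4 and 0 UMIs in NK cells, passed the limit through CD8 T cells, so nothing is read from these counts either.

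**Figure D3:**
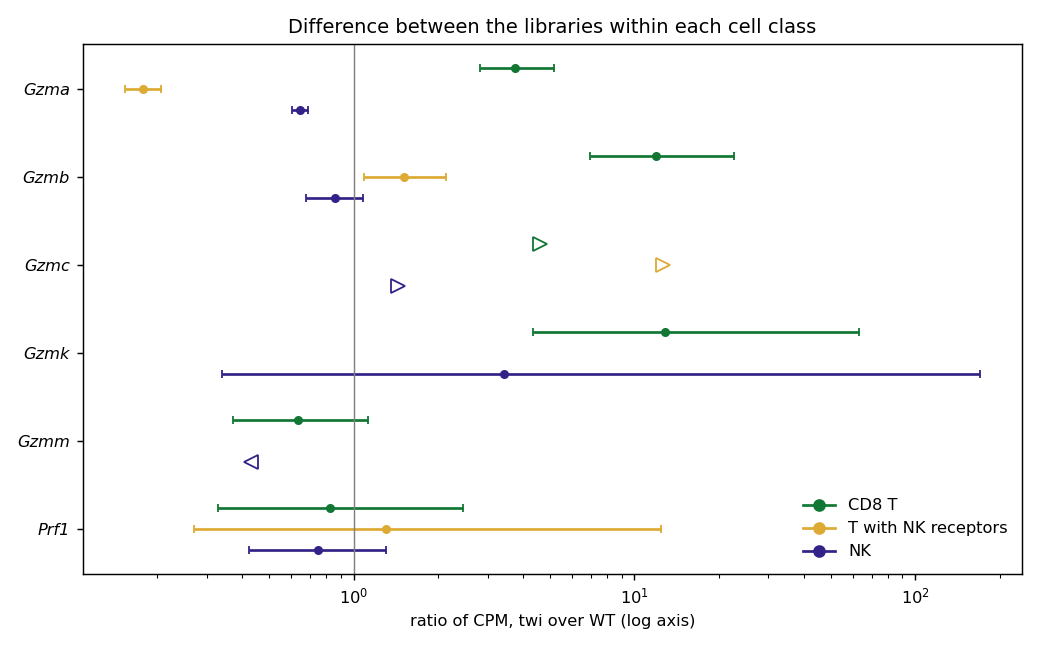
Ratio of CPM, twi over WT, within CD8 T cells (green), T cells with NK receptors (yellow) and NK cells (blue), on a log axis with a line at 1. Bars are exact 95% intervals for counting error. Open triangles are bounds where 1 library had 0 UMIs, taken with 3 UMIs in its place. For Gzmc in NK cells the bound is 1.43, but the exact lower limit of 0.789 is below 1. Gzma lies above 1 in CD8 T cells and below 1 in the other classes, and Prf1 spans 1 in all 3. T cells with NK receptors are drawn as 1 class, although those with Cd3e gave 1.68 for Gzma, a ratio that rests on few cells.

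The CD8 T classes of the libraries were not made of the same cells. At least 2 of the naive genes *Ccr7*, *Lef1* and *Tcf7* were seen in 77 of the 104 WT cells (74.0%) and in 145 of the 434 twi cells (33.4%). In cells without them, 27 in WT and 289 in twi, the *Gzmb* level was 67.0 CPM (21.8 to 156) in WT and 575 CPM (533 to 618) in twi, a ratio of 8.57 (3.66 to 26.5). *Gzma* was at 335 CPM (217 to 495) from 25 UMIs in 4 WT cells and at 569 CPM in twi, a smaller ratio of 1.70 (1.14 to 2.64). *Gzmk* gave 2 UMIs in WT and 166 in twi, with a ratio of 4.91 (1.34 to 40.9). *Gzmm* was lower in twi there, at 0.313 (0.138 to 0.832), from 7 WT UMIs. In cells with naive genes *Gzmb* was 3.45-fold (1.65 to 8.32) and *Gzma* 3.54-fold (2.27 to 5.80) higher in twi. That *Gzma* ratio came from 22 WT and 181 twi UMIs. Only 64 of the 181 were left without the 5 twi CD8 T cells with the most *Gzma*, so it rests on few cells. The naive gene set was narrowed after the values were seen, and the *Gzma* ratio outside naive-gene cells depended on it, since with the wider set fixed at the start its interval included 1.

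Keeping mixed-lineage cells lowered the CD8 T ratios to 1.46 (1.22 to 1.75) for *Gzma*, 3.52 (2.65 to 4.75) for *Gzmb* and 1.73 (1.15 to 2.72) for *Gzmk*.

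Within the twi CD8 T cells the members followed different companions. *Gzmb* was 2.27-fold (1.87 to 2.77) higher in the 290 cells with *Cxcr6* than in the 144 without, and 2.35-fold (2.02 to 2.73) higher in the 172 cells with at least 3 interferon-induced genes (such as *Ifit1*, *Isg15* and *Rsad2*). In the 37 cells with cycling genes such as *Mki67* and *Top2a*, which were deeper (median 6712 against 3922 UMIs), its ratio was 0.921 (0.748 to 1.12). *Gzma* was 3.78-fold (3.30 to 4.33) higher in cycling cells, at 1183 against 313 CPM, and lower in interferon cells, at 0.667 (0.579 to 0.766). Without the 5 cells with the most *Gzma* these ratios were 4.01 (3.34 to 4.79) and 0.289 (0.228 to 0.362). Its ratio by *Cxcr6* rested on those cells, since it was 0.607 (0.531 to 0.696) with them and turned to 1.58 (1.27 to 1.98) without.

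*Gzma* was also 1.82-fold (1.59 to 2.08) higher in CD8 T cells with an NK receptor gene, where *Gzmb* was at 1.15 (0.995 to 1.32). *Gzmk* was 2.34-fold (1.70 to 3.20) higher in cycling cells, or 1.34 (0.850 to 2.05) without its 5 highest cells, and 1.55-fold (1.16 to 2.08) in interferon cells, and did not separate by *Cxcr6*, at 1.04 (0.761 to 1.45). *Gzmc* was 5.56-fold (2.26 to 17.7) higher with *Cxcr6* and 3.16-fold (1.85 to 5.61) higher with interferon genes, but 1 cell held 38 of its 70 UMIs. Without that cell the ratios were 2.32 (0.881 to 7.72) and 0.765 (0.341 to 1.64), and both included 1. *Gzma*, *Gzmb* and *Gzmk* were lower in cells with naive genes, at 0.428, 0.150 and 0.306, and at 0.244, 0.187 and 0.2097 without the 5 highest cells of each. *Gzmc* was at 0.2499 there, or 0.659 (0.268 to 1.48) without its highest cell. *Gzmm* was at 0.489 (0.262 to 0.873) with interferon genes, but at 0.577 (0.305 to 1.05) without its highest cell, which included 1. Its ratio for naive genes, 1.10 (0.629 to 1.89), also included 1. *Prf1* did not separate by naive genes, at 0.953 (0.371 to 2.29), and 0 of its 25 UMIs were in cycling cells.

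**Figure D4:**
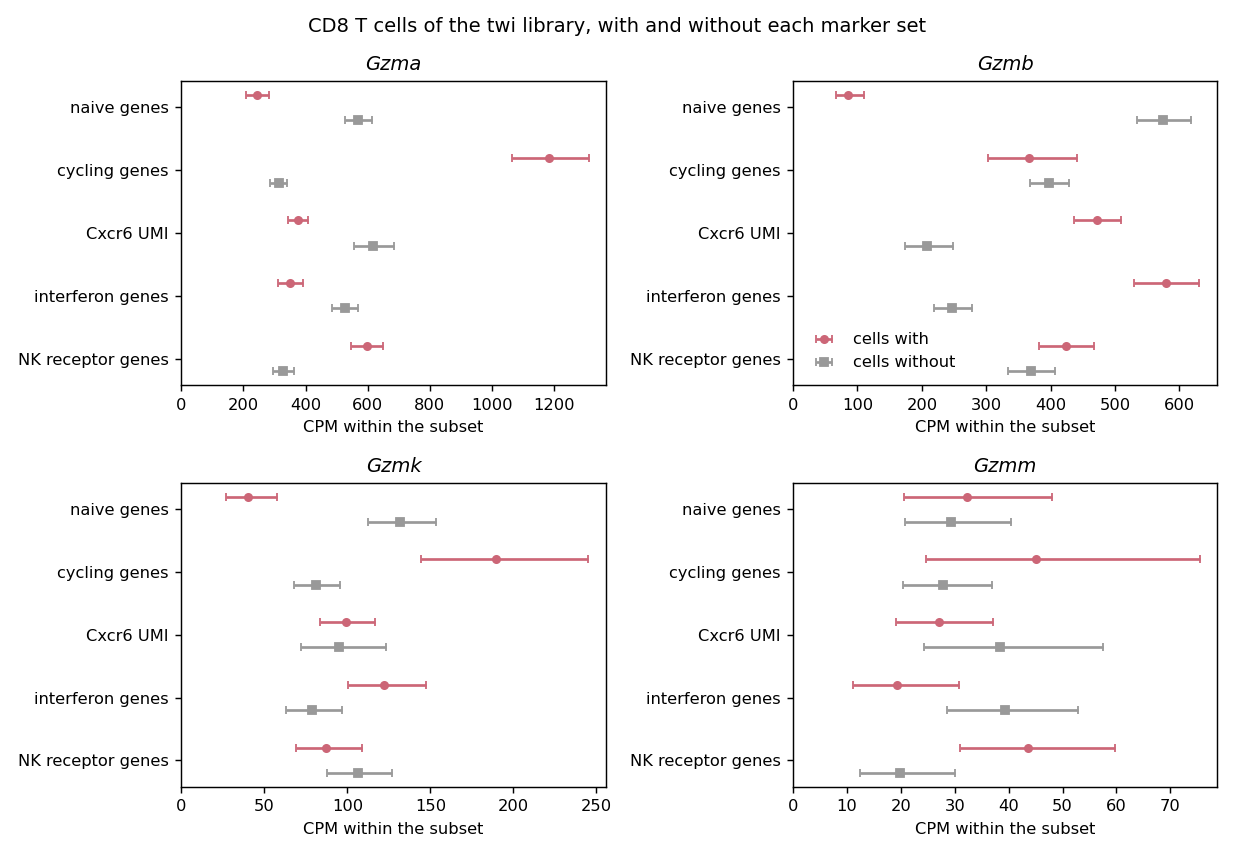
Levels of 4 granzyme genes in twi CD8 T cells with (red circles) and without (grey squares) each marker set, as CPM within the subset with exact 95% Poisson intervals. Gzma is highest in cycling cells, Gzmb is higher in interferon cells and in cells with Cxcr6 than in those without, and Gzma, Gzmb and Gzmk are lower in cells with naive genes, where the 2 intervals of Gzmm overlap.

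Twi CD8 T cells with 1 of *Gzma*, *Gzmb* and *Gzmk* had the others more often than cells without it. *Gzmb* was seen in 52.7% (42.0 to 63.3) of the 91 cells with *Gzma* and in 28.6% (23.8 to 33.7) of the 343 without. *Gzmk* was seen in 45.1% (34.6 to 55.8) and 12.8% (9.48 to 16.8) of the same cells, and *Gzmb* in 60.0% (48.8 to 70.5) of the 85 cells with *Gzmk* against 27.2% (22.6 to 32.2) of the 349 without. Cells with *Gzma* were deeper, at a median of 4926 against 3810 UMIs, but after thinning *Gzmb* was still seen in 46.7% against 16.2% and *Gzmk* in 24.4% against 6.53%. *Gzmc* was seen in 19 cells, *Gzmk* in 85 and both in 1, and nothing is read from so small an overlap. *Gzmb* alone was the most frequent combination (59 cells), followed by *Gzma* alone (25), *Gzmb* with *Gzmk* (23), *Gzma* with *Gzmb* and *Gzmk* (19) and *Gzmk* alone (18).

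Perforin was rarely seen in CD8 T cells, whether or not they had *Gzmb*. *Prf1* was seen in 3 of 91 cells with *Gzma* and in 10 of 146 with *Gzmb* (6.85%, 3.33 to 12.2), against 4.86% (2.68 to 8.02) of cells without *Gzmb*. At least 1 granzyme gene was seen in 19.2% of WT and 51.8% of twi CD8 T cells, and 5% and 5.33% of these had *Prf1*. In NK cells at least 1 granzyme gene was seen in 98.4% and 88.1%, and 39.7% and 36.5% of these had *Prf1*. Of the CD8 T cells with *Prf1*, 5 of 6 in WT and 12 of 24 in twi had no granzyme UMI. Among NK cells with *Prf1*, 0 of 25 and 0 of 19 lacked one. Given the shares of all cells of each class with a granzyme gene, no avoidance is read from these counts. In WT NK cells *Gzma* was seen in all 39 with *Gzmb*, and *Prf1* in 51.3% (34.8 to 67.6) of those 39 against 5 of the 25 without. At a mean of 0.469 UMIs a cell in WT NK cells, *Prf1* is counted too thinly for a missing UMI to mean a missing transcript.

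**Figure D5:**
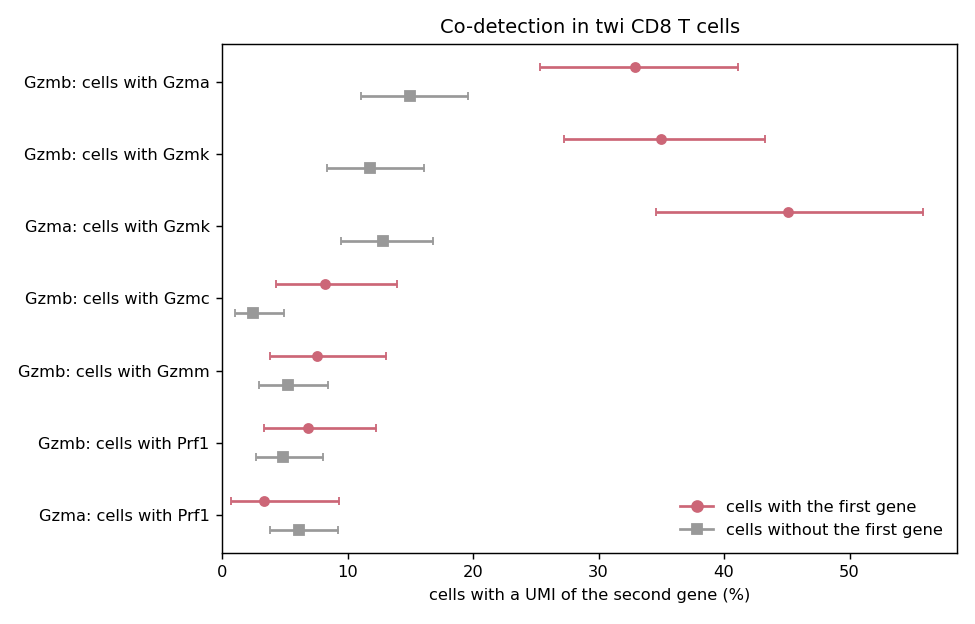
Share of twi CD8 T cells with a UMI of the second gene among cells with (red circles) and without (grey squares) the first gene, with exact 95% binomial intervals. Gzma, Gzmb and Gzmk are each seen more often in cells with than without another of the 3, while the Prf1 intervals of cells with and without Gzmb, at 6.85% and 4.86%, overlap.

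The libraries differed in how many cells of each class they held as well as in levels. In this paragraph a level is the mean UMIs a cell, not CPM, so the greater depth of the twi library is part of it. For *Gzma* over all cells, for example, the twi over WT ratio was 1.09 in UMIs a cell but 0.806 in CPM. The part of depth was not tested. Per 1000 cells, *Gzmb* gave 238 UMIs in WT and 1175 in twi. With the twi mix of classes (the mixed and unresolved cells included) and the WT level in each, it would have given 334, and with the WT mix and twi levels 522. *Gzma* gave 2718 and 2955, with 3514 and 2140 under the same exchanges. For *Gzmk* the values were 24.4 and 191, with 29.5 and 60.1. *Gzmm* gave 27.5 and 60.5, with 76.6 from the twi mix and 25.3 from the twi levels. *Prf1* gave 39.3 and 59.7, with 55.0 and 37.5.

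Of 12 genes of granule formation, release and protection, 1 was at least 2-fold higher in twi CD8 T cells, a share near the 11.5% of all genes tested. It was *Serpinb9*, the inhibitor that shields cells from granzyme B, with 5 UMIs in WT and 66 in twi and a ratio of 2.60 (1.06 to 8.28). With so few WT UMIs it met the limit through twi, so nothing is read from this count. The 12 genes had a median log2 ratio of 0.51, against 0.15 over all genes. Of 4 death ligands and cytokines 3 were higher, where 11.5% of genes were. *Fasl*, the ligand of the Fas death receptor, gave 2 and 133 UMIs (13.1-fold, 3.56 to 109), *Tnfsf10* (TRAIL) 3 and 63 (4.14-fold, 1.35 to 20.6) and *Tnf* 1 and 43 (8.48-fold, 1.44 to 342). With so few WT UMIs these 3 met the limit through twi, so nothing is read from this count either. *Ifng* was at 1.31 (0.816 to 2.22).

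Of 7 transcription factors 3 were higher in twi CD8 T cells (11.5% of genes), with *Id2* at 4.25 (3.39 to 5.38), *Tbx21* (T-bet) at 2.50 (1.27 to 5.60) and *Prdm1* (Blimp-1) at 2.27, whose interval of 0.560 to 19.8 included 1. Of these 3, *Tbx21* and *Prdm1* had 9 and 2 UMIs in WT and passed the limit through twi, so nothing is read from this count. *Eomes*, the T-box partner of T-bet, was at 1.17 (0.696 to 2.09). In NK cells 0 of the 10 partners and 0 of the 2 ligands and cytokines with enough UMIs passed, and of the 7 factors *Prdm1* was lower, at 0.492 (0.179 to 1.26), where 3.86% of genes were higher and 4.47% lower. In T cells with NK receptors *Serpinb9* (0.409, 0.229 to 0.742), *Ifng* (0.490, 0.311 to 0.784) and *Eomes* (0.349, 0.166 to 0.743) were lower. *Tbx21* (2.61, 1.13 to 7.44) and *Tnfsf10* (2.76, 0.666 to 24.4) were higher there, where 7.42% of genes were higher and 4.22% lower. With 6 and 2 UMIs in WT, these higher genes met the limit through twi, so nothing is read from their count. Within twi, 4 of the 12 partners (*Ctsc*, *Serpinb9*, *Serpinb6b* and *Stx11*), 2 of the 4 ligands and cytokines (*Fasl* and *Ifng*) and 4 of the 7 factors (*Tbx21*, *Eomes*, *Prdm1* and *Zeb2*) were at least 2-fold higher in NK than in CD8 T cells and 0 were lower, where 9.79% of genes were higher and 12.9% lower. The widest gaps were those of *Zeb2* (7.45-fold, 4.65 to 11.8), *Serpinb9* (7.40-fold, 5.03 to 10.8) and *Serpinb6b* (6.24-fold, 4.58 to 8.46).

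Across 16 sums of 8 classes in 2 libraries, the genes with the most similar log2 pattern (of 8234 candidates) differed by member. For *Gzma* they were *Sytl3* (Pearson r 0.971), *Klrc1* (0.966) and *Eomes* (0.964), and for *Gzmb* *Fasl* (0.968), *Klrc1* (0.957) and *Xcl1* (0.947). *Klrc1* encodes the NK receptor NKG2A. For *Prf1* they were *Qrfp* (0.932), *Klrg1* (0.919) and *Serpinb6b* (0.912), and for *Gzmc* *Cish* (0.862) and *Ppp1r16a* (0.765). *Gzmk* (*Apol9b*, 0.773) and *Gzmm* (*Gm28935*, 0.671) had no close match. Among the members *Gzma* went with *Prf1* (0.903) and *Gzmb* (0.893), while *Gzmc* and *Gzmm* had -0.14. The 16 sums share libraries and depth, so these values are descriptions.

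Cells with at least 2 marker genes of another lineage had been set apart as mixed. What is left of those markers in the classes was limited by that rule and is no check of purity. A neutrophil marker UMI was seen in 48 of 104 WT and 73 of 434 twi CD8 T cells. The summed neutrophil markers gave 0.587 UMIs a cell in WT and 0.189 in twi CD8 T cells, and the summed B cell markers 0.394 and 0.191, with 4 of 4 B cell markers seen in both. In NK cells the B cell markers gave 0.203 and 0.220 UMIs a cell. Their part in the results was not tested.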

How the data were processed

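Single-cell RNA sequencing of CD45+ brain cells gave 1 library for WT and 1 for twi mice. The authors deposited raw UMI counts for each gene and cell barcode, not normalized, and the submitters' processing notes name Cell Ranger 2.1.1 and mm10. Read-level filters were applied before deposit and could not be changed here.

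Barcodes with more than 15% mitochondrial UMIs were removed (7 WT, 13 twi). Classes were set by marker UMIs: CD8 T (a *Cd3* and a *Cd8* gene, no *Cd4*), CD4 T (the reverse), γδ T, T cells with NK receptors (at least 2 *Cd3* UMIs and 1 of 9 NK receptor genes, no *Cd4* or *Cd8*) and NK (no *Cd3*, *Cd4* or *Cd8b1*, at least 2 NK receptor genes). *Trdc* was not in the gene table, so *Cd163l1* or *5830411N06Rik* marked γδ T cells, which limits that class to cells with these genes. Cells with at least 2 genes of another lineage beside T or NK markers, or of more than 1 other lineage, were set apart as mixed. No doublet caller was run, so doublets may remain. The members and gene lists were chosen with earlier results of these data known. 1 marker of the naive gene set as first fixed is not reported here, so the set was cut to 3 genes after its values were seen.

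UMIs were summed by class and scaled to 1000000 class UMIs (CPM). Levels carry exact Poisson intervals, ratios intervals from the exact conditional binomial, and shares Clopper-Pearson intervals (scipy 1.17.1, numpy 2.4.6, pandas 2.3.3). Against 0 UMIs a bound was computed with 3 UMIs, over the class. Thinning drew 1000 UMIs from each cell, which left out 106 WT and 20 twi cells. UMIs of 1 library are not independent animals, so intervals cover counting error only and no p-value is given. The text names the members, the other granzyme genes, the genes on the partner, ligand and factor lists that differed at least 2-fold with at least 20 UMIs, and for likeness the genes of highest r of log2(CPM + 10) among those with at least 50 UMIs. *Ifng*, *Eomes*, *Cxcr6* and *Ncr1* are also named where a comparison needed them, after their values were seen. Intervals were tested only on sums simulated as Poisson counts. The simulation left out the gathering of UMIs in few cells, so it does not show how the intervals hold where that occurs.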

Additional observations from a re-analysis of the deposited data

Results flagged for a closer look

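*Gzma* differed between the libraries in opposite directions by class. The twi over WT ratio was 3.77 in CD8 T cells (898 against 47 UMIs), 0.642 in NK cells (1546 against 2072 UMIs) and 0.178 in T cells with NK receptors (304 against 496 UMIs). The intervals lay on opposite sides of 1, but with 1 library per genotype the difference between the classes was not tested. Of the 496 WT UMIs in T cells with NK receptors, 79.2% came from 5 cells. That class was mixed, with a ratio of 1.68 (1.03 to 2.91) in its cells with *Cd3e* and 0.182 in those without. The ratio with *Cd3e* rests on few cells, since 1 WT cell held 16 of 18 UMIs.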

How the results depend on the processing

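No paired analysis was possible because each genotype had 1 library, and for the same reason no replicate was left out. Of 262 values under alternatives listed at the start, 229 stayed within the counting interval of the reported value and 33 moved outside it. Of 58 under alternatives chosen after seeing the data, 14 moved and 1 more turned its direction. Values whose interval included 1 (0 for a difference) crossed it 6 and 7 times in these sets, as for *Gzmm* in CD8 T cells, at 1.03 thinned. *Prf1* and *Gzmm* are limited by few UMIs, and the *Gzma* ratios of T cells also moved with the choice of cells.

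Values twi over WT in CD8 T cells. Mixed-lineage cells kept gave 1.46 for *Gzma*, 3.52 for *Gzmb* and 1.73 for *Gzmk*. Leaving out cells with at least 2 naive genes gave 1.70 for *Gzma*, at least 1.20 for *Gzmc* and 0.313 for *Gzmm*. Leaving out cells with any of them left 6 WT cells with 1 UMI of *Gzma*, and gave 6.995 (1.25 to 277). Cells with Y-linked transcripts and no *Xist* gave 13.1 for *Gzma*. Thinning to 1000 UMIs gave a bound of 3.42 for *Gzmk*, and leaving out the highest cell gave a bound of 2.1 for *Gzmc*.

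In NK cells *Gzma* was at 0.713 with at least 3 NK receptor genes, 0.726 as a mean over cells, 0.758 thinned and 0.792 with *Cd4*, *Cd8b1* or 1 *Cd3* UMI allowed, and *Gzmb* was at 1.09 thinned, where its interval included 1 as before. In T cells with NK receptors *Gzma* was at 0.344 as a mean over cells, 0.244 without the 2% of barcodes with the most UMIs, 0.348 thinned and 1.68 in cells with *Cd3e*, which turned its direction. *Gzmb* there was at 2.37 as a mean over cells and 35.9 in cells with *Cd3e*. The bound for *Gzmc* there was 5.08 without its highest cell, 1.65 thinned and 8.11 with *Cd3e*. Over all cells *Gzma* was at 0.935 as a mean, 0.740 without the 2% and 0.927 thinned. *Gzmb* was at 4.39 as a mean and *Gzmc* at 46.1 thinned. *Gzmk* was at 17.9 as a mean, 18.8 without its highest cell, 18.5 without the 2% and 9.81 thinned.

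For NK over CD8 T cells in twi, *Gzma* was at 18.5 with at least 3 NK receptor genes, 21.1 as a mean, 20.4 without the 2%, 20.01 thinned and 18.5 with the wider NK class, and *Gzmb* was at 2.37 thinned. Differences in the percent of CD8 T cells with a UMI moved to 22.1 (Y-linked) for *Gzma*. They moved to 17.4 (thinned) and 19.9 (at least 2 UMIs) for *Gzmb*, and to 8.41, 9.22 and 28.0 (thinned, at least 2 UMIs, Y-linked) for *Gzmk*. Without cells with any naive gene they moved to 24.7 for *Gzmk* and turned from -4.59 for *Gzmm* and -0.24 for *Prf1* to 4.82 for both. For these moved values the cause was not tested. Some alternatives left too few UMIs for a ratio or a bound, as for *Gzmc* in CD8 T cells when thinned, and these give no value.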

Other observations

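The cells outside the classes also held granzyme UMIs. The 132 WT and 174 twi unresolved cells, which met no class rule, held 236 and 655 *Gzma* UMIs. In twi, 486 of these were in 11 cells with 1 *Cd3* UMI and an NK receptor gene, and 158 in 3 cells with at least 2 NK receptor genes and no *Cd3* UMI that the NK class left out for *Cd4* or *Cd8b1*. The mixed-lineage cells held 558 *Gzma* UMIs in WT and 129 in twi. The barcodes removed for mitochondrial UMIs held 0 UMIs of the 6 genes in WT and, in twi, 2 of *Gzma*, 3 of *Gzmb*, 2 of *Gzmc* and 1 each of *Gzmk*, *Gzmm* and *Prf1*.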
